A study of Mus musculus with 12 samples.

Results

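The 10 genes described here, Pdss1, Coq2, Coq3, Coq4, Coq5, Coq6, Coq7, Coq9, Coq10a and Coq10b, encode enzymes and binding proteins of coenzyme Q (CoQ), and all 10 were found by their symbols among the 23420 rows of the count tables. Coq10b was selected because earlier results from these same livers showed it higher in Siah2 KO than in wild type females, and the other 9 were taken because they belong to the same pathway. The values of Coq10b in females are therefore given as a description with no test, and so is every comparison that uses those females. The livers came from C57BL/6 mice of about 20 weeks, collected at Zeitgeber time (ZT) 10, shortly before lights off. Groups were wild type females, Siah2 KO females, wild type males and Siah2 KO males, with 3 mice in each of the 4 groups and 12 in all, fed normal chow and kept on a light:dark cycle. The Siah2 KO mice carried the deletion in every tissue and were homozygous, and both genotypes were bred as separate but related lines after an intercross of heterozygotes. Each library is named by its mouse number, and values of 3 mice are given in the order of those numbers. The sample labels speak of RNA pooled from 3 mice while the methods of the study speak of individual livers for this experiment, and the latter was followed. Livers were extracted whole, so fewer cells of a type and less RNA per cell cannot be told apart in these values.

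CoQ, or ubiquinone, is a lipid of the inner mitochondrial membrane that carries electrons from several dehydrogenases to the cytochrome bc1 complex, and in its reduced form it is an antioxidant of membranes. Its ring comes from tyrosine and its long tail from the mevalonate pathway, which also feeds cholesterol synthesis in the liver. PDSS1 builds the tail together with PDSS2, COQ2 joins tail and ring, and COQ3, COQ5, COQ6 and COQ7 then modify the ring, with COQ4 and COQ9 as partners in the same protein assembly. COQ10A and COQ10B stand apart from synthesis, as lipid-binding proteins needed for CoQ to work in the respiratory chain.

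The summed counts of a library ran from 1293688 to 4056144. Levels are given in CPM, the count of a gene per 1000000 reads of its library, with library sizes scaled by the TMM method over the 12 mice. Changes are given as the log2 fold change (log2FC) with its standard error (SE). The QuantSeq kit reads only the 3′ end of a transcript, so a long transcript gives no more reads than a short one, and CPM was set side by side between genes without a correction for length. Siah2 itself was between 11.5 and 27.1 CPM in the 6 wild type mice and between 9.42 and 17.4 CPM in the 6 Siah2 KO mice. Siah2 KO mice had a log2FC of Siah2 of -0.34 among females (SE 0.30, adjusted p = 0.641) and of -0.67 among males (SE 0.29, adjusted p = 1.0), by the quasi-likelihood test of edgeR with Benjamini-Hochberg adjustment over all genes tested. Where these 3′ reads lie relative to the deleted part was not stated in what was read, and they do not test the genotype labels. Xist was between 66.25 and 113 CPM in females and at most 0.868 CPM in males. The liver label was borne out by hepatocyte transcripts, 5 markers of which summed to between 23501 and 40294 CPM in every library. Taken singly, Cyp2e1 separated the female genotypes, at 3124.5 to 3927 CPM in wild type and 6494 to 7544 CPM in Siah2 KO females. Its male groups overlapped, as did the female genotypes for Alb, Apoa1, Ttr and Cps1. Wild type female 1091 stood apart from the other wild type females, at a chi-square of 47.9 and 51.0 per degree of freedom against them, where the other pairs within a group gave 7.45 to 25.1. Several results in females are given with and without it.

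On GRCm38.p6, Coq10b is a plus-strand gene of chromosome 1 (55052770 to 55072702) and its paralog Coq10a a minus-strand gene of chromosome 10 (128363096 to 128370056). Chromosome 2 holds Pdss1 (22894382 to 22940266) and Coq4 (29787493 to 29797935), and chromosome 5 holds Coq2 (100654723 to 100674288) and Coq5 (115279666 to 115296974). The remaining members are Coq3 on chromosome 4 (21879646 to 21912163), Coq7 on chromosome 7 (118509659 to 118533356), Coq9 on chromosome 8 (94838413 to 94854895) and Coq6 on chromosome 12 (84361756 to 84373796). The promoter of Coq10b is shown because this gene is the member whose level differed most between groups. The window below, chr1:55052520-55052819 from RefSeq (GRCm38.p6, plus strand), runs from 250 bases before the start of the gene to 50 bases into it and is written 5′ to 3′. Capitals mark, in this order, a CRE core, a D-box, an E-box with a CRE core directly behind it, and 2 further CRE cores.
Coq10b: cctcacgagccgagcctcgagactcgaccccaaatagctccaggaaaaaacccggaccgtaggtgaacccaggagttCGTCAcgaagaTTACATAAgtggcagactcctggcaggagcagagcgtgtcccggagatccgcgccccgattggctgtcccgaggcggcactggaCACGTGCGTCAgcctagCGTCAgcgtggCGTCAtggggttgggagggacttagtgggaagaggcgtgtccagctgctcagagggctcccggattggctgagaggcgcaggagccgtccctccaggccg
The motifs were searched on both strands as CACGTG (the E-box, bound by the clock activators CLOCK and BMAL1 among others), TTATGTAA (a D-box, bound by the PAR bZIP factors), TGACGTCA (the full CRE, bound by CREB), its core TGACG, which is also part of each full CRE, and AAGGTCA (an element of estrogen-related receptors). The choice of these motifs was made after the sequence had been seen. In the Coq10b window the E-box stood 78 to 73 bases before the gene start and the D-box 162 to 155 bases before it. The CRE core occurred 4 times and the full CRE and the receptor element 0 times. The CCAAT box (CCAAT), also searched on both strands but not capitalised, occurred 2 times. Of 32851 windows of this length, 7.15% held the E-box, 0.938% the D-box, 20.8% at least 1 CRE core and 0.231% at least 4, against 1.79% for the full CRE and 4.72% for the receptor element. Windows were listed for 9 of the 10 members, all but Coq5. Among the other members an E-box was found in Coq4 only, the D-box in 0, and 1 or 2 CRE cores in Coq2, Coq6, Coq7, Coq9 and in 1 of the 2 windows of Coq10a. The receptor element was found in Pdss1 and in the other window of Coq10a. The CCAAT box was found in Coq6 and Coq7, and in 37.4% of all windows. A match is a run of letters and was not tested as a binding site.

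Coq10b was the most abundant member over the 12 mice, with a mean of 82.6 CPM, and the member with the widest range in CPM. It was 27.1, 47.1 and 29.6 CPM in wild type females 1089, 1090 and 1091. The Siah2 KO females 1070, 1104 and 1105 had 134, 143 and 141 CPM. Both sets lay outside the range of the males, the wild type females below it and the Siah2 KO females above it. Wild type males 1055, 1086 and 1087 had 52.8, 93.0 and 97.8 CPM. Their Siah2 KO counterparts 1075, 1076 and 1081 had 97.6, 56.9 and 71.5 CPM, so that the male groups overlapped over almost their whole range. The order of the group means was thus wild type females (34.6 ± 10.9 CPM, SD, n = 3 mice), Siah2 KO males (75.3 ± 20.7 CPM), wild type males (81.2 ± 24.7 CPM) and Siah2 KO females (139 ± 4.68 CPM), and of these neighbours the male groups did not differ beyond their spread. The highest mouse had 1.07 times the CPM of the lowest within Siah2 KO females, against 1.72 to 1.85 times within each of the other 3 groups.

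In females the mean of Coq10b in Siah2 KO mice was 4.03 times that in wild type mice (log2FC 1.99, SE 0.26). This contrast chose the gene and carries no test. Leaving out single females gave values of 1.84 to 2.28, and the other settings tried gave 1.99 to 2.01. In males, whose values were not used in the choice, the log2FC was -0.14 (SE 0.24, 95% interval -0.66 to 0.38, adjusted p = 1.0 by edgeR's quasi-likelihood test), and the difference between the sexes, females minus males, was 2.13 (SE 0.39). Wild type females lay below wild type males by 1.24 on the log2 scale (SE 0.28), and Siah2 KO females lay above Siah2 KO males by 0.89 (SE 0.27). These last 3 values share mice with the contrast that chose the gene.

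**Figure D1:**
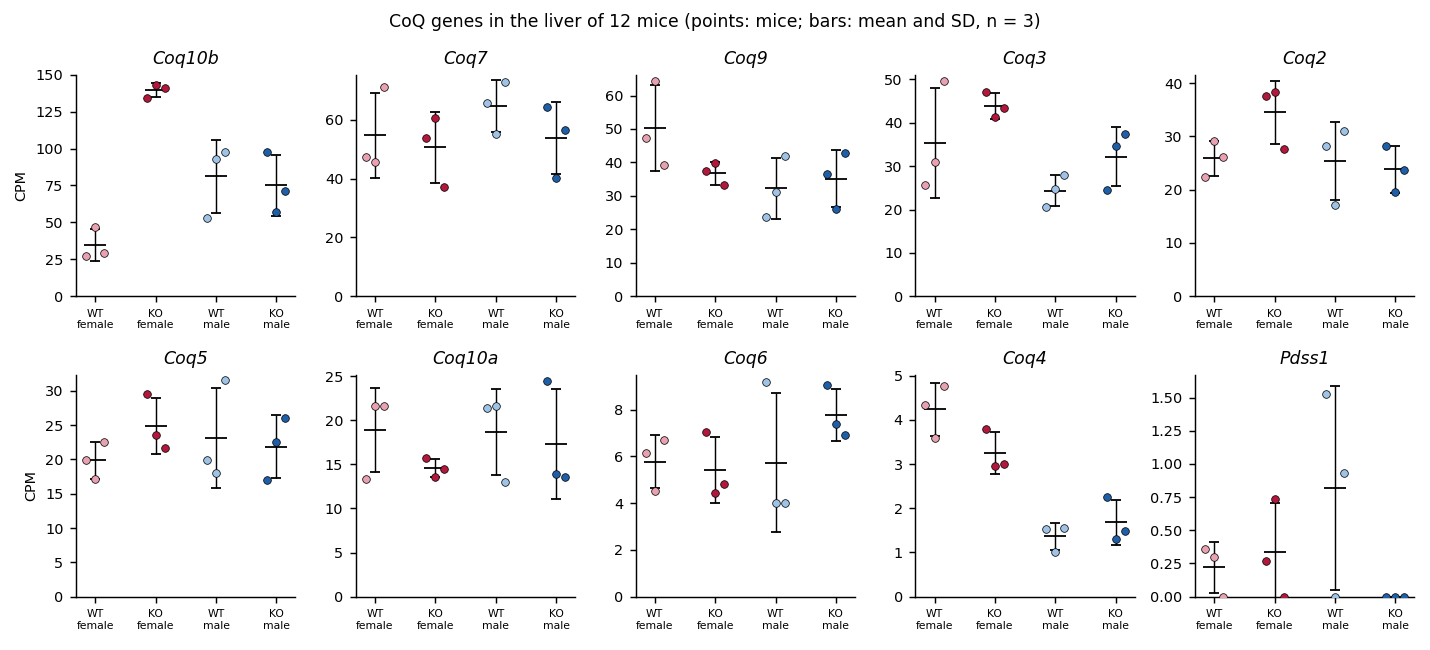
Level of the 10 CoQ genes (CPM, y axis of each panel, from 0) in wild type (WT) and Siah2 KO mice of each sex, with points for mice and bars for the mean and SD (n = 3). Coq10b shows 3 separate levels, lowest in wild type females at 27.1 to 47.1 CPM and highest in Siah2 KO females at 134 to 143 CPM, and Pdss1 is near 0 in every mouse.

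Coq10a, which encodes the paralog of COQ10B, was 13.4, 21.6 and 21.7 CPM in wild type females and 15.7, 13.6 and 14.4 CPM in Siah2 KO females, so the groups overlapped. Its log2FC was -0.38 in females (SE 0.29, 95% interval -1.03 to 0.26, adjusted p = 0.574, and -0.58 without wild type female 1089) and -0.09 in males (SE 0.31, adjusted p = 1.0, edgeR). The ratio of Coq10b to Coq10a CPM was 1.37 to 2.18 in wild type and 8.55 to 10.5 in Siah2 KO females, and among males 2.46 to 7.52 and 3.98 to 5.27. The summed CPM of the 9 members other than Coq10b was 215 ± 27.8 (SD, n = 3 mice) in wild type and 214 ± 25.3 in Siah2 KO females, and 196 ± 26.2 and 194 ± 24.2 in the males, so that group means lay within 1 SD of each other. Coq10b made up 10.9% to 17.8% of the CPM of all 10 members in wild type females and 36.6% to 43.2% in Siah2 KO females, with 21.6% to 35% in males of either genotype. By group mean it ranked 4 among the 10 members in wild type females, and 1 in the other 3 groups.

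The first enzyme of the pathway was barely read. Pdss1, whose product builds the tail, had 0 to 3 reads per mouse, 10 in all, and passed the filter on low counts in none of the comparisons. In Siah2 KO males it had 0 reads over the 3 libraries, which allows up to 0.330 CPM (3 reads over the group, counting error alone). Coq2, which encodes the enzyme that joins tail and ring, was 22.4, 29.1 and 26.1 CPM in wild type females and 37.6, 38.3 and 27.7 CPM in Siah2 KO females. Siah2 KO female 1105 lay within the wild type range. The log2FC was 0.41 (SE 0.25, 95% interval -0.14 to 0.96, adjusted p = 0.468 by edgeR), and Coq2 was -0.11 in males (SE 0.26, adjusted p = 1.0).

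Of the methyltransferases, Coq3 was 25.6, 30.9 and 49.7 CPM in wild type females and 47.1, 41.2 and 43.3 CPM in Siah2 KO females, and the overlap came from female 1091, the highest of all 12 mice. The log2FC of Coq3 in females was 0.30 (SE 0.28, adjusted p = 0.670 by edgeR), 0.11 without wild type female 1089 and 0.63 without 1091 (adjusted p = 0.0701), the smallest adjusted p of the 8 members tested there without Coq10b. In males Coq3 was 20.6, 24.6 and 27.9 CPM in wild type and 24.5, 34.7 and 37.5 CPM in Siah2 KO mice, a log2FC of 0.38 (SE 0.23, adjusted p = 1.0). Coq5 ranged from 17.0 to 31.6 CPM over all mice, with log2FCs of 0.32 in females (SE 0.26, and 0.18 without Siah2 KO female 1070) and -0.12 in males (SE 0.27). For the hydroxylases, Coq7 was the second most abundant member at a mean of 56.0 CPM and ranged from 37.3 to 73.0 CPM. Its log2FC was -0.12 in females (SE 0.28, and 0.14 without wild type female 1091) and -0.28 in males (SE 0.20, and -0.11 without Siah2 KO male 1076). Coq6 had 8 to 28 reads per mouse, and its log2FCs of -0.07 and 0.52 had SEs of 0.39 and 0.42, the latter value being 0.29 without wild type male 1087 and 0.94 without wild type male 1055. In females the value for Coq6 was 0.071 without wild type female 1091. None of these 3 genes separated the genotypes in either sex.

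COQ9 and COQ4 act beside these enzymes. Coq9 was 47.3, 64.2 and 39.2 CPM in wild type females and 37.3, 39.8 and 33.1 CPM in Siah2 KO females. A single mouse of each genotype made them overlap, and the log2FC was -0.46 (SE 0.25, 95% interval -1.03 to 0.10, adjusted p = 0.422 by edgeR), and -0.25 without wild type female 1090. Without wild type female 1091 the log2FC was -0.60 (adjusted p = 0.0898 by edgeR). In males it was 0.09 (SE 0.25, adjusted p = 1.0). Coq4 was read 2 to 15 times per mouse. It was tested in females, with a log2FC of -0.37 (SE 0.42, adjusted p = 0.729), and had too few reads to be tested within males. Coq9 overlaps the gene Ciapin1 on the genome, Coq4 overlaps Trub2, Coq6 overlaps Fam161b and Pdss1 overlaps Abi1, and since the counting is not stated to use strand, reads of these pairs may not be fully separable.

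Across the comparison of genotypes, the count of members called was 0 in each sex. In females 0 of the 8 members tested other than Coq10b had an adjusted p under 0.05 in edgeR, beside 0% of all 9465 genes tested. By DESeq2 0 of the 7 that received an adjusted p were called, beside 3.70% of 8185 genes, and the smallest of their adjusted p values was 0.564. At an unadjusted p under 0.05 the count was again 0 of 8, beside 15.6% of all genes, and 0 of 8 separated all Siah2 KO from all wild type females, beside 23.3% of all genes. The 8 genes split into 3 above and 5 below 0, with a median log2FC of -0.10 and a range of -0.46 to 0.41, while the median of all genes was -0.03. Without female 1091, edgeR called 936 of 9709 genes (9.64%) and still 0 of the 8. Coq6 and Coq7 then moved from below to above 0, at 0.071 and 0.14, so the split of signs rested in part on that library. In males 0 of 8 members tested, Coq10b included, passed an adjusted p of 0.05 in edgeR (0% of 8823 genes), 0 had an unadjusted p under 0.05 (4.05% of all genes), and 0 separated the genotypes (8.87%). DESeq2 called 0 of 10, and its share over all genes is not given here. The median of the 8 members was -0.10, beside -0.01 for all genes.

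**Figure D2:**
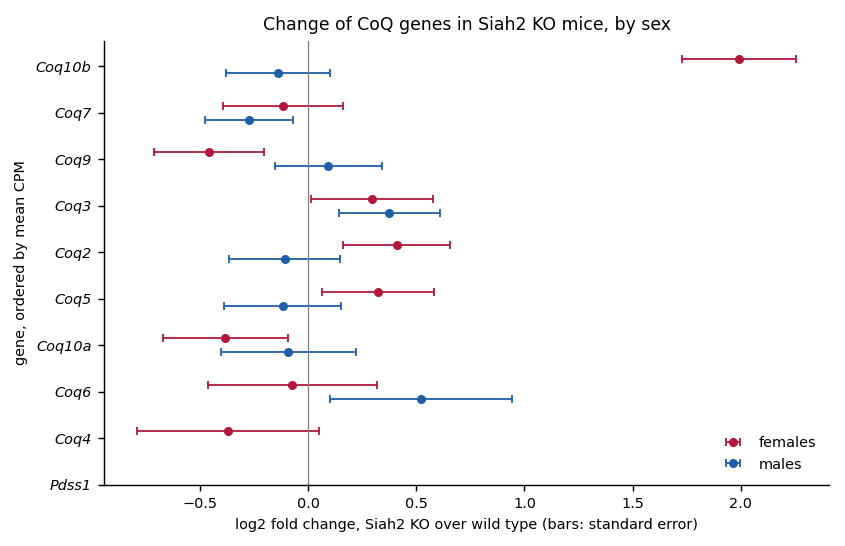
Log2FC of each CoQ gene in Siah2 KO over wild type mice (x axis), in females (red) and males (blue), with bars for the SE and genes in the order of their mean CPM (y axis). Coq10b in females, at 1.99, lies far from the other points, which range from -0.46 to 0.52. Pdss1 in both sexes and Coq4 in males had too few reads for a test.

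Whether the change differed between the sexes was tested in a fit of all 12 mice. Among the 8 members tested other than Coq10b, 0 had an adjusted p under 0.05 in edgeR, beside 0.255% of 9806 genes, 0 had an unadjusted p under 0.05, beside 14.1%, and DESeq2 called 0 of the 6 it tested (its share over all genes is not given here). Their differences, with the male log2FC taken from the female one, ran from -0.64 for Coq4 (SE 0.72, adjusted p = 0.762, and -0.42 without Siah2 KO male 1075) to 0.52 for Coq2 (SE 0.36, adjusted p = 0.581, and 0.30 without wild type male 1087). The intervals are wide. For Coq2 the 95% interval of the difference reached from -0.25 to 1.29, and for Coq9 (difference -0.56, SE 0.37) from -1.34 to 0.23.

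Sex itself was compared within each genotype. Between wild type females and males 0 of the 8 members other than Coq10b had an adjusted p under 0.05 in edgeR, beside 5.15% of all genes, and 2 of 8, Coq4 and Coq9, had an unadjusted p under 0.05, beside 20.0% of all genes. Coq4 had 4.33, 3.60 and 4.78 CPM in wild type females against 1.53, 1.01 and 1.55 CPM in wild type males, a log2FC of 1.60 in females over males (SE 0.52, adjusted p = 0.0887 by edgeR). In Siah2 KO mice the same gene was 3.79, 2.95 and 3.01 CPM in females and 2.26, 1.30 and 1.48 CPM in males (log2FC 0.96, SE 0.49, adjusted p = 0.319). Each of the 6 females thus had more Coq4 than each of the 6 males, at 2.95 to 4.78 CPM against 1.01 to 2.26 CPM, on 5 to 15 reads per female and 2 to 6 per male, of which some may belong to the overlapping gene Trub2. Coq9 was higher in wild type females than males by a log2FC of 0.62 (SE 0.26, adjusted p = 0.200), and that value was 0.06 in Siah2 KO mice (SE 0.26, adjusted p = 0.937). Between Siah2 KO females and males 0 of 8 passed an adjusted p of 0.05, beside 3.59% of all genes, and 1 of 8, Coq2, had an unadjusted p under 0.05, beside 18.3%. DESeq2 called 0 of 8 in the wild type and 0 of 7 in the Siah2 KO comparison, and its shares over all genes are not given here. Coq2 was higher in Siah2 KO females by a log2FC of 0.54 (SE 0.25, adjusted p = 0.271 by edgeR).

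The other genes of the pathway were taken as 4 lists. Of 10 other genes listed for CoQ synthesis, 7 had enough reads in females and 6 in males. Adck1, Adck2 and Adck5 are on that list, and their part in synthesis was not tested here. Of the list, 0 passed an adjusted p of 0.05 in any of the 5 comparisons. Among all genes 0% passed between genotypes in either sex and 0.255% for the difference between the sexes. For females against males, 5.15% passed in wild type and 3.59% in Siah2 KO mice. Pdss2, partner of Pdss1, had too few reads, and Hpdl had reads in 2 libraries. Fdx1l, listed under its older symbol, had 0 reads in all 12, which allows up to 0.0908 CPM by counting error alone. Whether reads of Fdx1l could be assigned to it was not tested, so the 0 does not show that the gene is silent. The lowest value in females among genes averaging 10 CPM or more was that of Adck3, the older symbol of Coq8a, which encodes an ATPase of the synthesis complex. Adck3 was 101, 91.2 and 134 CPM in wild type females and 68.7, 51.2 and 58.4 CPM in Siah2 KO females, without overlap. Its log2FC was -0.88 (SE 0.24, adjusted p = 0.131 by edgeR), and -0.69 without female 1091 (adjusted p = 0.0463). In males Adck3 overlapped between genotypes, with a log2FC of -0.17 (SE 0.22, adjusted p = 1.0). The highest value in females was that of Fdx1, ferredoxin, which passes electrons to mitochondrial hydroxylases. It was 0.49 (SE 0.28, adjusted p = 0.447), with 339, 268 and 531 CPM in wild type and 564, 564 and 480 CPM in Siah2 KO females, and 0.82 without female 1091 (adjusted p = 0.0220). The median log2FC of the list in females was -0.27, which is the value of Adck5, and in males it was -0.12. Without female 1091 the median in females was -0.04. Adck3 and Fdx1 were then the 2 genes called of 7, beside 9.64% of all genes.

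Among 5 genes of CoQ transport and of its reduction outside the respiratory chain, all 5 were tested in females, with a median log2FC of -0.07 and 0 called, and 4 in males, with a median of 0.06 and 0 called. Of all genes tested, 0% were called in either sex. Aifm2, whose product FSP1 reduces CoQ at the plasma membrane, had the highest value at 0.01 (SE 0.27, adjusted p = 0.989 by edgeR). Cyb5r3, a cytochrome b5 reductase, had the lowest at -0.33 (SE 0.22, adjusted p = 0.513). Cyb5r3 passed in 1 comparison, lower in Siah2 KO females (196 ± 31.5 CPM, SD, n = 3 mice) than in Siah2 KO males (316 ± 23.3 CPM), with a log2FC of -0.69 (SE 0.18, adjusted p = 0.0457 by edgeR). Of all genes, 3.59% passed in that comparison.

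All 15 genes of respiratory chain enzymes that pass electrons to or from CoQ were tested in females. Of these 11 were above and 4 below 0, with a median of 0.06 and 0 called, beside 0% of all genes. Without female 1091 the median was 0.34 and 1 gene of 15 was called, beside 9.64% of all genes, so the share is no larger than the background. It was Uqcrfs1, the Rieske subunit of the bc1 complex, which is named here after its values were seen (log2FC 0.63, adjusted p = 0.0486, against 0.27 and 0.713 with all females). Between the genotypes in males 4 were above and 11 below 0, with a median of -0.13 and 0 called, beside 0% of all genes. Sdhd, a membrane anchor of succinate dehydrogenase, had the highest value in females, 1.27 (SE 0.85, adjusted p = 0.520), and this value rested on female 1091. That library had 6 reads of Sdhd, or 1.91 CPM, where the other 11 mice had 48.1 to 238 CPM, and without it the log2FC was 0.71 (adjusted p = 0.128). Sdhb, the iron-sulfur subunit of the same enzyme, had the lowest value. It was 334, 345 and 360 CPM in wild type females and 244, 268 and 185 CPM in Siah2 KO females, without overlap (log2FC -0.59, SE 0.23, adjusted p = 0.250 by edgeR). Without female 1091 its log2FC was -0.54 (adjusted p = 0.0963 by edgeR). Males had 181 to 228 CPM of Sdhb in either genotype, and wild type females exceeded wild type males by a log2FC of 0.78 (SE 0.19, adjusted p = 0.0244 by edgeR). Sqrdl, the older symbol of Sqor, whose product oxidises sulfide with CoQ, was higher in Siah2 KO females (131 ± 13.2 CPM, SD, n = 3 mice) than in Siah2 KO males (77.1 ± 4.02 CPM), by a log2FC of 0.77 (SE 0.18, adjusted p = 0.0227 by edgeR). In wild type mice it was also higher in each female than in each male, with means of 129 and 85.1 CPM (log2FC 0.60, SE 0.18, adjusted p = 0.0606).

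The mevalonate and prenyl chain genes, which supply the tail, had 7 of 8 members tested in each sex. In females 1 was above and 6 below 0, with a median log2FC of -0.45, and 0 passed, beside 0% of all genes. That median was 0.12 without female 1091, so its direction rested on this library. Hmgcs1, which encodes a synthase of the pathway and had the lowest value, was 1848, 628 and 2576 CPM in wild type females and 840, 1104 and 386 CPM in Siah2 KO females, with a log2FC of -1.13 (SE 0.51, adjusted p = 0.321 by edgeR), and -0.67 without female 1091 (adjusted p = 0.374). In males 1 was again above and 6 below 0, with a median of -0.53 and 0 called, beside 0% of all genes. Of the 7, 4 had an unadjusted p under 0.05, beside 4.05% of all genes. Each of these 4 was lower in Siah2 KO males and had an adjusted p of 1.0.

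**Figure D3:**
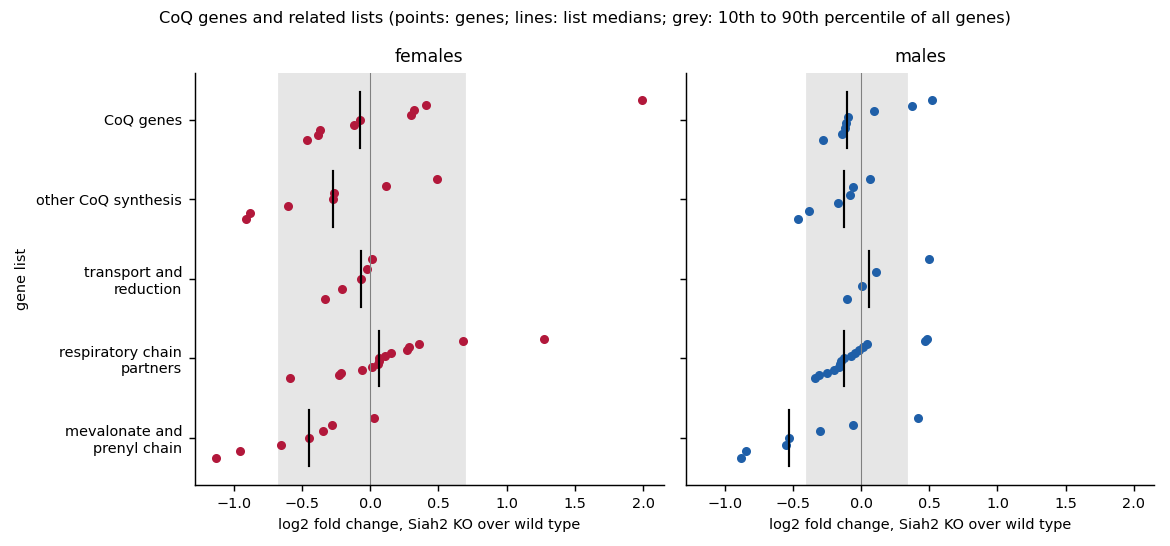
Log2FC in Siah2 KO over wild type females (left) and males (right) for each tested gene of the CoQ set and of 4 related lists (rows), with black lines at list medians and a grey band from the 10th to the 90th percentile of all genes tested. The CoQ set includes Coq10b, its outermost point in females at 1.99, while the mevalonate list has its median at -0.45 in females and -0.53 in males.

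Genes with a pattern like that of Coq10b were ranked by Pearson's r of log2 CPM over the 12 mice among 6716 genes averaging 10 CPM or more. The first 5 were Hiatl1 (r = 0.98, Spearman's rho 0.95), Ciao1 (r = 0.96, rho 0.99), Hyal2 (r = 0.95, rho 0.88), Hnrnpf (r = 0.95, rho 0.92) and Yipf6 (r = 0.95, rho 0.97). These are the extremes of a ranking, and they are given without a test. Without wild type females 1089 and 1091, the mice farthest from the median of Coq10b, their r was 0.92 to 0.95. It was 0.96 to 0.99 over the 6 females and 0.84 to 0.99 over the 6 males. All of these mice also made the ranking, so these values are a description and no separate support. The 6 females are also those of the contrast that chose Coq10b. Ciao1, which encodes a factor of cytosolic iron-sulfur protein assembly, averaged 27.7 CPM (SD 1.5, n = 3 mice) in wild type and 59.3 CPM (SD 8.81) in Siah2 KO females, and 45.0 (SD 10.8) and 43.1 CPM (SD 5.24) in the males, the same order of groups at its ends as Coq10b. Hiatl1, which encodes a membrane transporter of unsettled function, was 87.0, 99.0 and 91.4 CPM in wild type females against 165, 159 and 157 CPM in Siah2 KO females, with 110 to 141 CPM among males. Hyal2 encodes a hyaluronidase, Hnrnpf an RNA-binding protein of splicing and Yipf6 a membrane protein of the Golgi. None of the 5 is another member. Among the 6 other members averaging 10 CPM or more, r with Coq10b ran from -0.21 for Coq10a to 0.43 for Coq2, and over the 6 males it ran from -0.10 for Coq3 to 0.72 for Coq9.

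**Figure D4:**
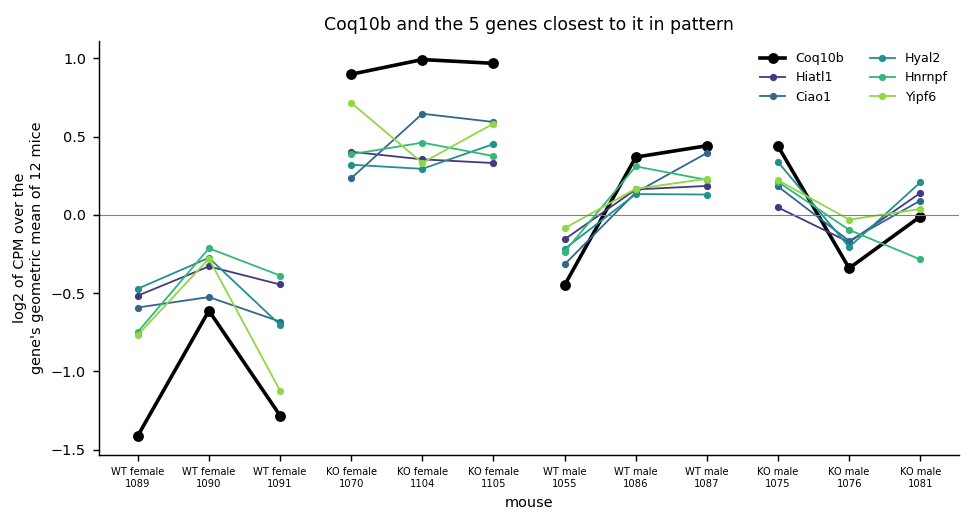
Level of Coq10b (black) and of the 5 genes closest to it in pattern, as log2 of CPM over the geometric mean of the 12 mice (y axis), in each mouse (x axis, joined within a group). The mean of all 6 genes is lowest in wild type females, highest in Siah2 KO females and between these in males, and Coq10b, at 27.1 to 143 CPM, spans the widest range.

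On chromosome 1 the nearest protein-coding genes in the tables are Sf3b1, Ankrd44 and Pgap1 before Coq10b, and Hspd1, Hspe1 and Mob4 after it. Hspd1 ends 5130 bases beyond Coq10b on the opposite strand. Together with its neighbour Hspe1 it encodes the mitochondrial chaperonin that folds imported proteins. Hspe1 was 481, 498 and 879 CPM in wild type females and 1558, 1194 and 961 CPM in Siah2 KO females, without overlap. Its log2FC in females was 0.99 (SE 0.31, adjusted p = 0.183 by edgeR), and 1.34 without female 1091 (adjusted p = 0.00702). Hspd1 was 532, 504 and 713 CPM in wild type females and 927, 940 and 864 CPM in Siah2 KO females, a log2FC of 0.63 (SE 0.24, adjusted p = 0.233), and 0.82 without 1091 (adjusted p = 0.0158). In males both lay below 0, at -0.36 for Hspe1 (SE 0.17) and -0.31 for Hspd1 (SE 0.16), each with an adjusted p of 1.0. Siah2 KO females exceeded Siah2 KO males for Hspe1 by a log2FC of 1.29 (SE 0.27, adjusted p = 0.0124 by edgeR) and for Hspd1 by 0.84 (SE 0.20, adjusted p = 0.0295). With all mice, no neighbour passed between the genotypes in either sex. Without female 1091, where Hspd1 and Hspe1 passed in females, so did 9.64% of all genes tested. The other neighbours had log2FCs in females of 0.25 for Sf3b1, -0.38 for Ankrd44, -0.41 for Pgap1 and -0.46 for Mob4. Their values without 1091 are not given here. In wild type mice, females and males overlapped for Hspd1 and Hspe1, whereas Coq10b was lower in each wild type female than in each wild type male.

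**Figure D5:**
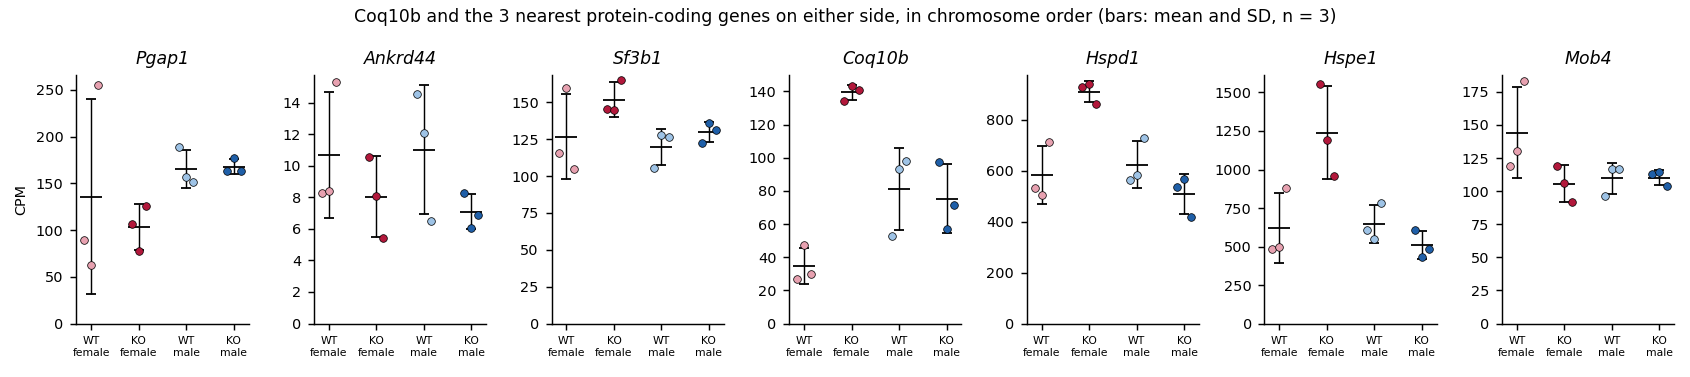
CPM (y axis of each panel, from 0) of Coq10b and the 3 nearest protein-coding genes on either side, in chromosome order, by sex and genotype, with points for mice and bars for the mean and SD (n = 3). Hspd1 and Hspe1 are highest in Siah2 KO females, at 864 to 940 and 961 to 1558 CPM, but not lowest in wild type females as Coq10b is.

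Markers of other cell types were looked at beside these values. The 4 Kupffer cell markers summed to 348 to 468 CPM in wild type and 274 to 703 CPM in Siah2 KO females, and to 57.9 to 512 CPM in males, overlapping between genotypes in each sex. The 3 endothelial markers summed to 95.3 to 127 CPM in wild type females and 56.6 to 82.0 CPM in Siah2 KO females, without overlap, and to 60.6 to 80.4 CPM in males. Taken singly, only Clec4g separated the female genotypes (37.5 to 39.9 CPM in wild type against 23.5 to 33.3 CPM), while Stab2 and Pecam1 overlapped. The 3 stellate cell markers overlapped, at 107 to 293 CPM and 108 to 158 CPM in wild type and Siah2 KO females, as did the 4 bile duct markers, at 4.46 to 27.4 and 10.8 to 30.6 CPM. The part of these cells in the level of Coq10b was not tested. Muscle markers, where Ckm and Acta1 had 0 reads in all mice, summed to at most 0.765 CPM, pancreatic markers to at most 3.61 CPM, and fat markers to at most 0.722 CPM in females and 26.4 CPM in males. Of the 5 red blood cell markers the 4 globin genes had 0 reads in all 12 libraries, and Alas2 was 20.1 to 25.2 CPM in wild type females, 8.47 to 19.3 CPM in Siah2 KO females and 83.9 to 154 CPM in males. Whether reads could be assigned to the globin genes was not tested, so their 0 does not show that red blood cells were absent.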

How the data were processed

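RNA from 12 livers was sequenced with the Lexogen QuantSeq 3′ mRNA kit, and the deposited tables, one per sex, hold whole-number counts of reads per gene that the authors made by alignment with STAR to mm10 (GRCm38), per the submitters' processing notes. The gene annotation, versions and strand setting were not named in what was read. The 2 tables were joined on their 23420 symbols. Of the counts, 0.228% to 0.272% fell on 27 symbols turned into dates, which stayed in the library sizes, and 5.68% to 17.9% on the ribosomal transcript Rn45s.

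Genes were kept by filterByExpr, scaled by TMM and tested by the quasi-likelihood F test of edgeR 4.0.16 (R 4.3.3) with Benjamini-Hochberg adjustment over all genes tested and a threshold of 0.05. Siah2 KO and wild type were compared in a fit of each sex, and sexes and the difference between them in a fit of all 12 mice. SEs were derived from the F statistic and 95% intervals from the t distribution with the fit's degrees of freedom. The code was tested on simulated counts. Replicates were mice, so p-values measure the spread between 3 mice a group. DESeq2 1.42.0 (DESeq2 was also the authors' tool), RLE scaling, other filters, another choice of groups in the fit and leaving out each mouse were the alternatives. Log2 CPM used a prior count of 3.

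The members and lists were chosen with earlier results of these data known. Named were all members, Siah2, list genes that passed in any comparison, the highest and lowest of each list in females at a mean of 10 CPM or more, the 5 genes most like Coq10b and the 3 nearest protein-coding genes of the tables on either side, and Uqcrfs1 was added after its values were seen. The highest gene of the mevalonate list is not reported here. Adck3, Fdx1l and Sqrdl were looked up under older symbols. Positions and promoters came from RefSeq (GRCm38.p6). No other columns were used.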

Additional observations from a re-analysis of the deposited data

How the results depend on the processing

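The count of CoQ genes called, with Coq10b counted in the comparison of males alone, was 0 in each of the 5 comparisons, and it was 0 again under all 72 alternatives, of which 48 left out a mouse. Counts over all genes moved far more. In females they went from 0 to 303 by DESeq2, 484 without a filter, 427 with all 4 groups fitted together and 936 without wild type female 1091. In males they went from 0 to 6, 29 and 3, the last without wild type male 1086, and for the difference between the sexes from 25 to 260 by DESeq2, 325 without a filter and 0 to 522 with a mouse left out. For wild type females against males the count was 505, and 802 without a filter, 130 with those groups alone and 201 to 1043 with a mouse left out. For Siah2 KO females against males it was 352, and 664, 1044 and 288 to 972.

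Of 426 values of single members with a mouse left out, 35 changed sign and the others kept it. Some that kept their sign moved by more than the SE of the log2FC. Coq10b in females did so, at 2.28 without wild type female 1090. So did Coq3 in females, from 0.30 (SE 0.28) to 0.63 without wild type female 1091. How many values moved this far was not counted. The lowest and highest log2FC with a mouse left out were, in females, -0.33 and 0.071 for Coq6 and -0.27 and 0.14 for Coq7. In males they were -0.31 and 0.10 for Coq2, -0.26 and 0.22 for Coq5, -0.070 and 0.35 for Coq9, -0.40 and 0.085 for Coq10a, and -0.35 and 0.026 for Coq10b. For the difference between the sexes they were -0.26 and 0.26 for Coq3, -0.021 and 0.42 for Coq7, and -0.48 and 0.027 for Coq10a. For wild type females over males they were -0.17 and 0.25 for Coq2, -0.37 and 0.10 for Coq5, -0.10 and 0.50 for Coq6, and -0.15 and 0.24 for Coq10a, and for Siah2 KO females over males -0.25 and 0.085 for Coq7, -0.11 and 0.24 for Coq9, and -0.39 and 0.083 for Coq10a. The cause was not tested. The other settings gave 211 values, of single members and of the correlation of the 5 most alike genes with Coq10b. All of these kept their sign. The first 5 genes by likeness to Coq10b kept ranks 1 to 5 with a prior count of 1, and by Spearman's rho they ranked 5, 1, 63, 25 and 3. No paired analysis was possible because each mouse number occurs in a single group. Low counts limited Pdss1, with 10 reads in all, and Coq4 and Coq6, with 2 to 15 and 8 to 28 reads per mouse. The cause of these low counts was not tested.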
